A study of Hevea brasiliensis with 6 samples.

Results

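The unigenes described here are the 200 assembled leaf transcripts of rubber tree (Hevea brasiliensis) that were lowest, relative to control, after 1 h of cold in both the clone ‘Reken501’ and the clone ‘93-114’. For each unigene and library, a level was taken as the log2 of the fragments, with 0.5 added, over the library total, minus the median of that quantity over the 90162 unigenes with 10 or more fragments on average over the 6 libraries. Of 167072 unigenes, 48176 had a mean of at least 30 fragments, and 400 of these had a level at least 1 log2 unit below control (2-fold or more) in both clones at 1 h. The 200 with the lowest larger value of both differences are the members. Where all unigenes are named for comparison, the 48176 are meant, and lowered or raised means a log2 difference of at least 1 in size. The members were thus selected on the 1 h and control values, which are given as a description without a test.

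Leaves of 1-year-old plants with 2 extension units were taken from ‘Reken501’, which the study calls cold-susceptible, and from ‘93-114’, which it names cold-resistant. Sampling took place without cold (control) and when plants had spent 1 h or 24 h at 4 °C. Each of the 6 libraries came from 1 pool of leaves of 3 plants, so no condition has a replicate library, no difference below has a replicate check, and the pool cannot be told apart from the condition. The libraries held 20.4 M to 21.9 M fragments. In such bulk leaf RNA, fewer cells of a type and less RNA per cell cannot be told apart.

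In chilled leaves the level of a transcript depends on how fast it is made and how fast it decays, and both are known to change with temperature. Transcripts with a short lifetime can be cleared from a leaf within the first hour after their synthesis slows. In Arabidopsis, genes of growth, light and hormone responses are among those whose transcripts fall early in the cold, while the CBF/DREB regulators rise. The tables pair no unigene with a gene name, and 0 unigene IDs matched the 50196 genes of the RefSeq table of the species. The members therefore carry no known roles, the leaf label could not be checked against marker genes, and no pathway list was formed. At most 2 IDs of each direction are printed, and other members are described by their length and fragments.

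In ‘Reken501’, the median member went from 81.0 fragments at control to 25.5 at 1 h and 36.5 at 24 h. In ‘93-114’ it went from 98.0 to 19.0 and 25.5 fragments. Summed, the members held 0.232% of the control library of ‘Reken501’, 0.0711% of its 1 h library and 0.0747% of its 24 h library. For ‘93-114’ the summed members held 0.175%, then 0.0315%, then 0.0382%. Leaving out the most-read member gave 0.196%, 0.0571% and 0.0697% for ‘Reken501’, and 0.172%, 0.0307% and 0.0379% for ‘93-114’. Over all 48176 unigenes, the median was 88.0, 82.0 and 82.0 fragments in ‘Reken501’ and 90.0, 60.0 and 62.0 in ‘93-114’, so the cold libraries of ‘93-114’ were lower for unigenes at large too. In both clones the summed members of the 24 h library stood near the 1 h library and well below control. On the per-length scale, the median FPKM (fragments per kilobase of unigene and M fragments of the library) of the members at control was 5.16 in ‘Reken501’ and 5.59 in ‘93-114’. At 1 h it was 1.5 and 0.963. Over all unigenes the median FPKM was 4.12 and 4.28 at control and 3.83 and 2.76 at 1 h.

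The median log2 difference of the members at 1 h was -1.5 in ‘Reken501’ and -1.58 in ‘93-114’, against 0.02 and 0.05 over all 48176 unigenes. The lowest value was -4.44 in ‘Reken501’ and -4.28 in ‘93-114’. Differences of -2 or less were found for 32 members in ‘Reken501’, for 40 in ‘93-114’ and for 10 in both. The difference was lower in ‘Reken501’ for 89 members and lower in ‘93-114’ for 111, and for 132 members the values of both clones lay within 0.5 of each other. At the same limit of -1, 5.68% of the 48176 unigenes were lowered in ‘Reken501’, 8.05% in ‘93-114’ and 0.830% in both. These shares belong to the contrasts that chose the members.

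**Figure D1:**
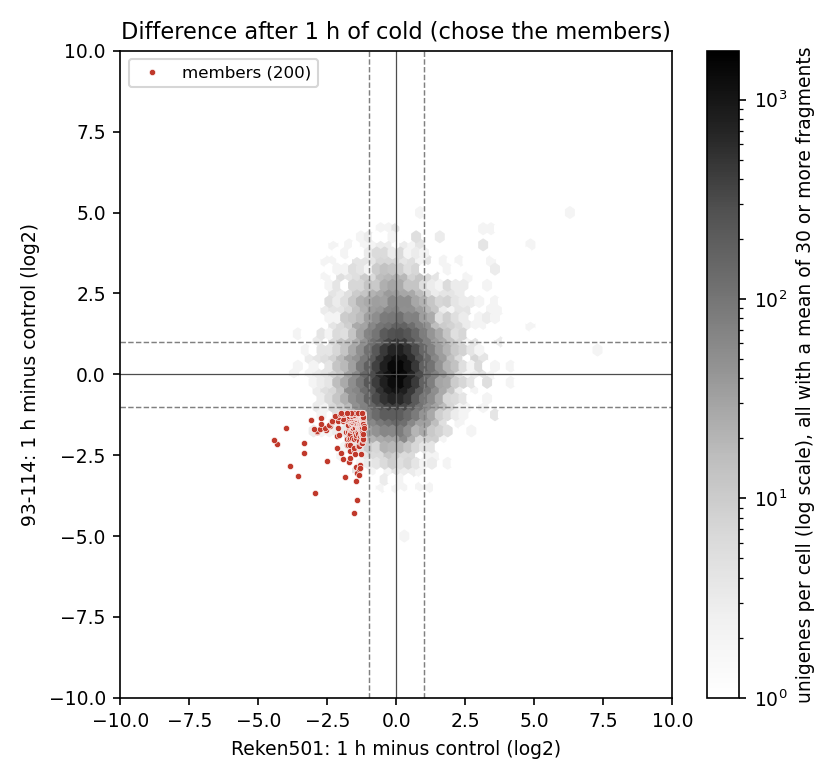
Log2 difference of 1 h of cold from control in ‘Reken501’ (x axis) and ‘93-114’ (y axis), 1 library per condition; grey cells count all 48176 unigenes, red points are the 200 members and dashed lines mark differences of -1 and 1. The members fill the lower left corner by their choice, with medians of -1.5 and -1.58.

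The limit of the group is not a natural gap. The last member by rank had a larger value of -1.188, with 49 and 20 fragments in the control and 1 h libraries of ‘Reken501’ and 101 and 20 in those of ‘93-114’. The first unigene left out had -1.187, with 18 and 6 fragments in ‘Reken501’ and 148 and 41 in ‘93-114’. Counting error was wide for most members. The 95% exact conditional interval of the 1 h difference, which covers counting error only, spanned a median of 1.37 log2 units in ‘Reken501’ and 1.52 in ‘93-114’. It lay wholly below 0 in both clones for 188 of the 200 members. The choice of members on these same contrasts favours such intervals, so this count is a description and no check of the falls. Fewer than 10 control fragments were counted in at least 1 clone for 9 members, whose fall in that clone rests on few reads.

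Among the 45 members that averaged 100 fragments or more, the lowest larger value of the 1 h differences of both clones belonged to CL14469.Contig2_All and CL3549.Contig5_All. CL14469.Contig2_All, of 1138 bases, had 607, 39 and 75 fragments in ‘Reken501’ and 184, 16 and 45 in ‘93-114’ at control, 1 h and 24 h. Both cold libraries of each clone were far below its control, and the 24 h library stood above the 1 h library. Its 1 h difference was -3.86 (counting interval -4.38 to -3.41) in ‘Reken501’ and -2.83 (-3.71 to -2.13) in ‘93-114’, or 14.5-fold and 7.12-fold lower. At 24 h it was still 7.82-fold and 2.79-fold below control.

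CL3549.Contig5_All, of 2726 bases, had 363, 59 and 100 fragments in ‘Reken501’ and 438, 43 and 128 in ‘93-114’. The clones had near levels at control, with a difference of 0.15 (-0.05 to 0.36). The 1 h difference was -2.53 (-2.96 to -2.14) in ‘Reken501’ and -2.68 (-3.18 to -2.24) in ‘93-114’, and the 24 h differences were -1.81 (-2.15 to -1.5) and -1.23 (-1.53 to -0.95). The cluster of this contig holds 1 further member, of 4592 bases, with 163, 48 and 57 fragments in ‘Reken501’ and 245, 30 and 38 in ‘93-114’. The lowest member of all, of 2971 bases, was rarer, with 68, 5 and 20 fragments in ‘Reken501’ and 76, 5 and 9 in ‘93-114’.

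The 24 h libraries did not enter the contrasts that chose the members, but the comparison with control uses the same control libraries, so a control library that was high by chance would lower both. After 24 h of cold, 129 of the 200 members (64.5%, 95% Wilson interval 57.7 to 70.8) were at -1 or less in ‘Reken501’ and 143 (71.5%, 64.9 to 77.3) in ‘93-114’. Over all 48176 unigenes, 9.39% were at -1 or less in ‘Reken501’ and 10.9% in ‘93-114’. In both clones it was 110 members (55.0%), against 3.31% of all unigenes. The intervals treat unigenes as independent and hold no spread between pools. The median 24 h difference of the members was -1.46 in ‘Reken501’ and -1.43 in ‘93-114’, against -0.08 and -0.05 over all unigenes.

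The values of ‘93-114’ depend on how its libraries are scaled. With library totals alone, the median difference over the 90162 unigenes used for centring was -0.68 at 1 h and -0.70 at 24 h in ‘93-114’, and -0.08 and -0.11 in ‘Reken501’. On that scale 181 members were at -1 or less at 24 h in ‘93-114’ and 135 in ‘Reken501’, and the median of the members in ‘93-114’ was -2.08. Log2 differences and the folds made from them are given relative to the median unigene, while fragments, shares of a library and FPKM are not.

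**Figure D2:**
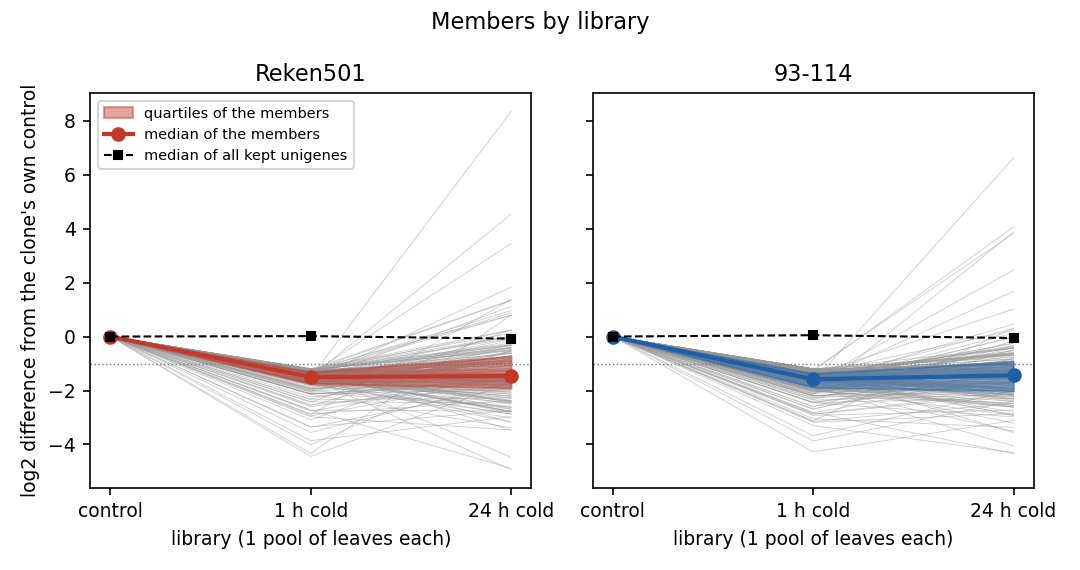
Log2 difference of each member from the control library of its clone (y axis) in the control, 1 h and 24 h libraries (x axis); grey lines are the 200 members, coloured lines and bands their median and quartiles, black squares the median of all 48176 unigenes and the dotted line a difference of -1. The median of the members went from -1.5 at 1 h to -1.46 at 24 h in ‘Reken501’ and from -1.58 to -1.43 in ‘93-114’, while single members spread from -4.94 to 8.35 and from -4.34 to 6.62 at 24 h. Both upper ends belong to 1 member with 1 and 2 control fragments, which passed the fragment filter only through its 24 h libraries.

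Set beside the members, the 200 other unigenes that met both limits at 1 h had 53.0% at -1 or less at 24 h in ‘Reken501’, 57.0% in ‘93-114’ and 36.0% in both. Of the 2336 unigenes that met the 1 h limit in ‘Reken501’ only, 40.4% were at -1 or less at 24 h in ‘Reken501’ and 13.9% in ‘93-114’. Of the 3477 that met it in ‘93-114’ only, 45.0% were at -1 or less at 24 h in ‘93-114’ and 13.5% in ‘Reken501’. These sets differ from the members in how low they were at 1 h, and the differences between the sets were not tested. Within the members, 83 of the 155 with a mean under 100 fragments (53.5%) were low in both clones at 24 h, as were 17 of 30 with a mean of 100 to 300 (56.7%) and 10 of 15 with a mean of 300 or more (66.7%). Of the 188 members whose 1 h counting intervals lay below 0 in both clones, 108 (57.4%) were low in both at 24 h.

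At 24 h, 174 of the 200 members lay below control in both clones, by any amount. The share of all unigenes that did so is not given here, so this count has no background. Besides the 110 members low in both, 19 were at -1 or less in ‘Reken501’ only, 33 in ‘93-114’ only and 38 in neither. Of all unigenes, 9.39% were at -1 or less in ‘Reken501’, 10.9% in ‘93-114’ and 3.31% in both. A level at or above control in both clones was found for 6 members (3.0%), against 27.7% of all unigenes. Within 0.5 of control in both lay 5 members, a count also without a background. A difference of 1 or more was found for 8 members (4.0%) in ‘Reken501’ and 7 (3.5%) in ‘93-114’, against 9.05% and 11.8% of all unigenes.

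**Figure D3:**
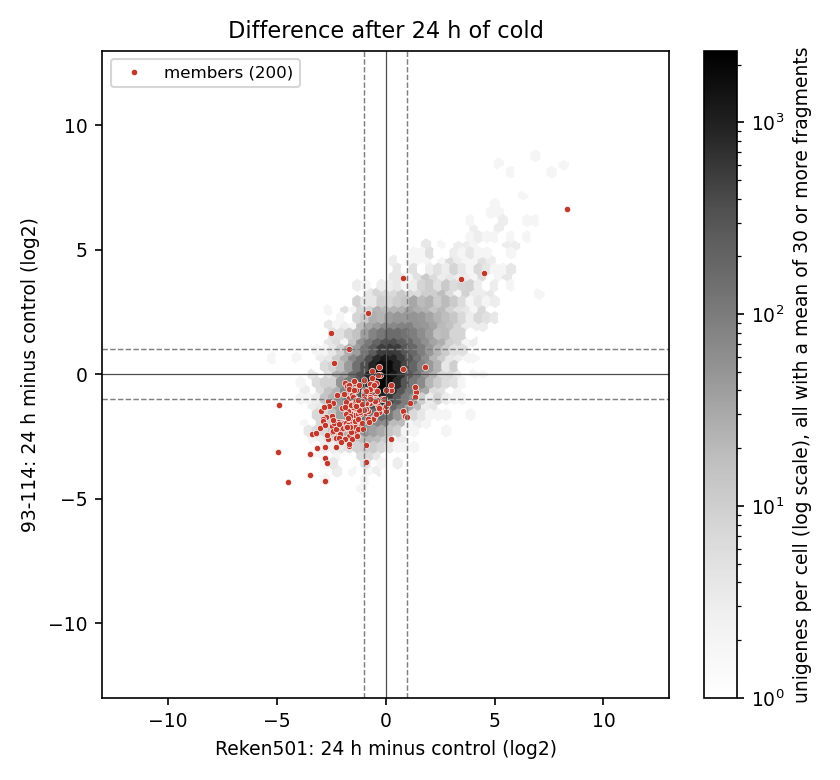
Log2 difference of 24 h of cold from control in ‘Reken501’ (x axis) and ‘93-114’ (y axis), 1 library per condition; grey cells count all 48176 unigenes, red points are the 200 members and dashed lines mark -1 and 1. Of the members, 110 lie at -1 or less on both axes and 3 lie at 1 or more on both.

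Of the 15 members with a mean of at least 300 fragments, 11 were at -1 or less at 24 h in ‘Reken501’ and 12 in ‘93-114’. Over these 15 members, the median 24 h difference was -2.23 in ‘Reken501’ and -1.91 in ‘93-114’. The most-read member, a contig of 2835 bases, had 7708, 3005 and 1081 fragments in ‘Reken501’ and 679, 165 and 61 in ‘93-114’ at control, 1 h and 24 h. It fell again between 1 h and 24 h in both clones, to 6.93-fold and 7.61-fold below control. At control its FPKM was 128 in ‘Reken501’ and 11.8 in ‘93-114’.

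A unigene of 4578 bases had much the same values in both clones, with 1533, 474 and 322 fragments in ‘Reken501’ and 1337, 270 and 245 in ‘93-114’. Its 1 h differences were -1.61 (-1.76 to -1.46) and -1.65 (-1.85 to -1.47), and its 24 h differences -2.21 (-2.39 to -2.04) and -1.91 (-2.11 to -1.71). Another, of 3596 bases, held a steady low level, with 571, 195 and 201 fragments in ‘Reken501’ and 221, 54 and 59 in ‘93-114’. It was 2.76-fold below control at both cold times in ‘Reken501’ and 2.59-fold and 2.56-fold below control in ‘93-114’.

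Between 1 h and 24 h, 90 members were higher in both clones (45.0%) and 49 lower in both (24.5%), against 21.9% and 37.8% of all unigenes. This comparison shares the 1 h libraries with the contrasts that chose the members. The median difference of 24 h from 1 h was 0.17 in ‘Reken501’ and 0.20 in ‘93-114’, against -0.09 and -0.11 over all unigenes. Differences of 1 or more were found for 43 members (21.5%) in ‘Reken501’ and 35 (17.5%) in ‘93-114’, against 7.25% and 5.65% of all unigenes, and in both clones for 14 (7.0%), against 2.12%. Differences of -1 or less were found for 22 members (11.0%) in ‘Reken501’ and 12 (6.0%) in ‘93-114’, against 6.80% and 6.91%. Across the 200 members, Spearman's rho between the clones for this difference was 0.484, and across all 48176 unigenes it was 0.273. No library enters both sides of this correlation, but unigenes of a library share its depth and are not independent replicates.

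A further fall of 1 log2 unit or more between 1 h and 24 h in both clones was found for 7 members (3.50%), against 1.57% of all unigenes, and the most-read member is among them. A second of these, a unigene of 2035 bases, had 1020, 385 and 44 fragments in ‘Reken501’ and 2830, 257 and 96 in ‘93-114’. By 24 h it was 22.3-fold below control in ‘Reken501’ and 20.2-fold in ‘93-114’, although its 1 h difference was -1.32 (-1.49 to -1.15) in ‘Reken501’ and -2.81 (-3.00 to -2.62) in ‘93-114’. Another of the 7, of 1810 bases, had 689, 283 and 60 fragments in ‘Reken501’ and 1320, 231 and 54 in ‘93-114’, which is 11.1-fold and 16.7-fold below control at 24 h.

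The mean of 30 fragments that a unigene needed was taken over all 6 libraries, the 24 h libraries included. Without these, 8 members had a mean under 30, and 6 of them are among the 12 raised at 24 h in at least 1 clone, so the number of raised members moves with that filter. At the other end of the range, 3 members (1.5%, against 4.30% of all unigenes) were at 1 or more above control in both clones at 24 h, and 2 of the 3 passed the filter only through their 24 h libraries. Unigene30272_All, of 4853 bases, had 52, 17 and 1185 fragments in ‘Reken501’ and 51, 13 and 592 in ‘93-114’. Both 24 h libraries were far above the other libraries of their clone. Its 1 h difference was -1.5 (-2.41 to -0.72) in ‘Reken501’ and -1.28 (-2.32 to -0.42) in ‘93-114’, and its 24 h difference 4.54 (4.15 to 4.98) and 4.06 (3.66 to 4.52), or 23.2-fold and 16.7-fold above control.

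CL11282.Contig1_All, of 1323 bases, had 1, 0 and 474 fragments in ‘Reken501’ and 2, 0 and 169 in ‘93-114’. It entered the group through a step from 1 or 2 fragments to 0, which is within counting error, so no fall at 1 h was detectable at this depth. The 95% counting interval of its log2 difference of 24 h from 1 h began at 6.96 in ‘Reken501’ and at 5.39 in ‘93-114’ and had no upper end, since both 1 h libraries were at 0. The last of these members, of 1242 bases, had 12, 4 and 132 fragments in ‘Reken501’ and 5, 1 and 53 in ‘93-114’. Each of these 3 members had more fragments in ‘Reken501’ than in ‘93-114’ at 24 h.

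**Figure D4:**
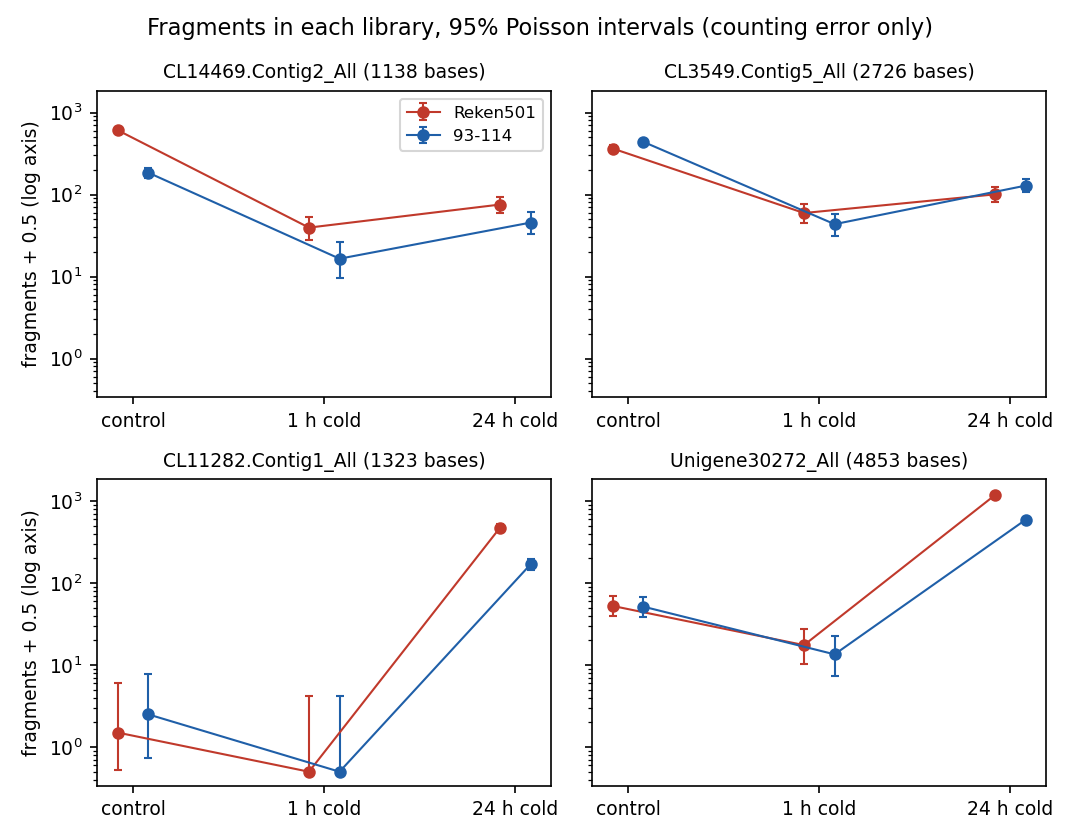
Fragments plus 0.5 (log axis) in the control, 1 h and 24 h libraries (x axis) of ‘Reken501’ (red) and ‘93-114’ (blue) for 4 members; bars are 95% Poisson intervals and cover counting error only. The upper pair falls steeply at 1 h and stays below control at 24 h, and the lower pair ends far above control, at 474 and 169 fragments for CL11282.Contig1_All and at 1185 and 592 for Unigene30272_All. CL11282.Contig1_All passed the fragment filter only through its 24 h libraries.

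At 24 h, 3 members (1.5%, Wilson interval 0.511 to 4.32) had differences of at least 1 in opposite directions in the clones. This interval covers the 0.785% of all unigenes that had such differences. Of the 3, 1 member had only 2, 0 and 5 fragments in ‘93-114’. A contig of 978 bases had 924, 368 and 283 fragments in ‘Reken501’ and 81, 19 and 113 in ‘93-114’. Its 24 h difference was -1.66 (-1.86 to -1.47) in ‘Reken501’ and 1.02 (0.59 to 1.45) in ‘93-114’. A pair of contigs of 1 cluster, of 1195 and 972 bases, went the other way. They are not among the 3, since both stayed under 1 in ‘Reken501’. The longer had 135, 50 and 241 fragments in ‘Reken501’ and 380, 52 and 81 in ‘93-114’, and the shorter had 124, 48 and 235 and 356, 52 and 75. At 24 h the longer stood at 0.87 in ‘Reken501’ and -1.68 in ‘93-114’, and the shorter at 0.96 and -1.70. Because contigs of a cluster can be alike in sequence, the authors' counting could have split the same fragments between them, and they are not separate evidence.

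Somewhat larger shares of the members than of all unigenes differed between the clones at control, which was not tested. At control, 45 members (22.5%, Wilson interval 17.3 to 28.8) were at least 1 log2 unit lower and 38 (19.0%, 14.2 to 25) at least 1 higher in ‘93-114’ than in ‘Reken501’, against 17.2% and 14.2% of all unigenes. A difference of at least 4-fold in either direction was found for 43 members (21.5%), against 10.8% of all unigenes, which were not matched to the members for depth. The control libraries are part of the contrasts that chose the members. At 24 h, whose libraries are not, 46 members (23.0%) were lower and 33 (16.5%) higher in ‘93-114’, against 16.0% and 15.4%. The median difference between the clones was 0.05 at control, -0.18 at 1 h and -0.22 at 24 h, against -0.13, -0.11 and -0.10 over all unigenes. At 1 h, 50 of the 200 members were lower and 39 (19.5%) higher in ‘93-114’, against 18.9% and 18.6%.

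Of the 45 members lower in ‘93-114’ at control, 32 (71.1%) were lower at 24 h and 0 were higher, and of the 38 higher at control, 24 (63.2%) were higher at 24 h and 3 were lower. Over all unigenes the shares that stayed were 53.5% and 61.6%. Spearman's rho between the clone differences at control and at 24 h, which share no library, was 0.755 across the members and 0.632 across all unigenes. A unigene of 2201 bases shows such a steady gap, with 2631, 570 and 654 fragments in ‘Reken501’ and 506, 101 and 89 in ‘93-114’. Its difference between the clones was -2.49 at control (-2.64 to -2.36) and -2.49 at 24 h (-2.83 to -2.18), while it was 3.91-fold and 3.90-fold below control in ‘Reken501’ and ‘93-114’ at 24 h.

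**Figure D5:**
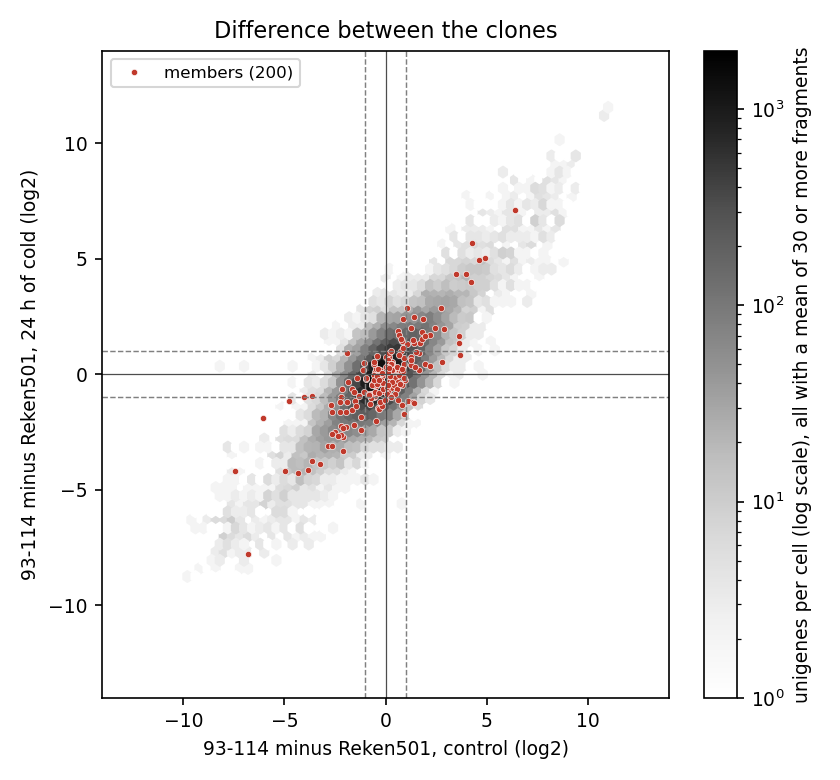
Log2 difference of ‘93-114’ from ‘Reken501’ at control (x axis) and after 24 h of cold (y axis), 1 library per condition; grey cells count all 48176 unigenes, red points are the 200 members and dashed lines mark -1 and 1. Of the members, 32 lay lower and 24 higher in ‘93-114’ by at least 1 at both times.

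At the far end of this range, some members were read almost in 1 clone alone. A unigene of 771 bases had 400, 23 and 224 fragments in ‘Reken501’ and 2, 0 and 9 in ‘93-114’. Its 1 h difference in ‘Reken501’ was -4.01 (-4.71 to -3.43), a 16.1-fold fall, and at 24 h it stood at -0.79 (-1.04 to -0.56). A contig of 590 bases had 1, 0 and 0 fragments in ‘Reken501’ and 136, 24 and 52 in ‘93-114’. In such members the 1 h fall was measured in 1 clone only.

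The members were shorter than the unigenes they were drawn from and had fewer fragments on average over the 6 libraries. Their median length was 988 bases (quartiles 577.5 to 1798.8), against 1217 bases (689.8 to 1997) over all 48176 unigenes, and 22.5% were under 500 bases, against 14.6%. Their median six-library mean was 46.5 fragments, against 79.7, and 45 members (22.5%) averaged 100 or more, against 41.9%. The mean includes the cold libraries in which the members are low, so it moves with their choice. At control, whose libraries also entered the choice, the median member was not clearly rarer. It had 81.0 fragments in ‘Reken501’ and 98.0 in ‘93-114’, against 88.0 and 90.0 over all unigenes.

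Of the members, 105 (52.5%, 45.6 to 59.3) were contigs of 95 clusters and 95 stood alone, against 60.7% contigs among all unigenes. In 9 clusters there were 2 or 3 members, 19 members in all. The clusters held 281 other contigs with a mean of at least 30 fragments, in 70 of the 95 clusters. Of these 281 contigs, 37 (13.2%) were at -1 or less at 1 h in ‘Reken501’, 105 (37.4%) in ‘93-114’ and 10 (3.56%) in both, and their median difference was -0.34 and -0.74. Over all unigenes the shares were 5.68%, 8.05% and 0.83%. The member contigs were selected on this contrast and these 281 were not, so their values are set side by side without a comparison. When the contigs of each cluster were summed, 25 of the 95 clusters were at -1 or less at 1 h in both clones and 80 were below 0 in both, with medians of -0.78 in ‘Reken501’ and -0.85 in ‘93-114’. The sums hold the fragments of the members themselves, which were chosen for low values here, so low sums are partly built in. Summed over all clusters, with unigenes standing alone kept as units, 291 of 32096 units met the limit of -1 in both clones. Those units were centred on their own median, and the 80 have no such background. The members that stood alone had 61.1% low in both clones at 24 h, and the contigs 49.5%.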

How the data were processed

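RNA of 6 leaf pools was sequenced on an Illumina HiSeq platform, and adapters and reads of low quality were taken out, per the study's methods. The authors deposited 4 tables, each with a cold and a control library of 1 clone. They hold raw counts of fragments for each unigene, the FPKM made from it by the authors, and the unigene length. The study's methods describe alignment to a genome, transcripts rebuilt with StringTie and gene levels from RSEM. The deposited IDs are of unigenes and clusters of contigs, not of a genome, so how these tables were made is not given in the sources used here. The authors' ratios, p-values and false discovery rates in these tables were not used.

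Counts were joined over the tables, with a unigene missing from a table set to 0. Control columns shared by tables held the same values, and each column added up to the total in its heading. Levels, differences and the limit of 1 log2 unit are as defined in the report. The members, limits and comparisons were chosen with earlier results of these data known. With 1 library per condition no test was run, and all intervals are at the 95% level. Those of fragments and of differences of single unigenes cover counting error only. The Wilson intervals of shares and the rank intervals of medians treat unigenes as independent and hold no spread between pools. The rule was run on simulated counts with known falls, drawn with counting error only. The falls were set in unigenes with an expected mean of at least 100 fragments. Most members average fewer, and spread between pools was not simulated, so the run does not show how the rule treats these data. IDs are printed for the 2 members with the lowest larger 1 h difference and the 2 with the highest smaller difference of 24 h from 1 h, among members with a mean of at least 100 fragments; other members were singled out after their values were seen. Python 3.11.15, numpy 2.4.6, pandas 2.3.3 and scipy 1.17.1 were used, and edgeR 4.0.16 and DESeq2 1.42.0 in R 4.3.3 gave alternative scaling factors. The other alternatives were library totals, totals without the 100 most-read unigenes, a pseudocount of 5, other minimum means, a limit of -1.5, and contigs summed per cluster.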

Additional observations from a re-analysis of the deposited data

Results flagged for a closer look

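The 24 h difference had opposite signs in the clones, with at least 1 log2 unit on either side of control, for 3 of the 200 members. In ‘Reken501’ 2 members were lowered while they were raised in ‘93-114’, and 1 member was raised in ‘Reken501’ and lowered in ‘93-114’. Over all 48176 unigenes 0.785% had such opposite differences. The first is the contig of 978 bases described above. The second, of 404 bases, had 154, 56 and 26 fragments in ‘Reken501’ and 2, 0 and 5 in ‘93-114’ at control, 1 h and 24 h. Its 24 h difference in ‘93-114’ was 1.68, with a counting interval of -0.75 to 5.25 that covers 0. The member that went the other way, of 4802 bases, had 14, 4 and 30 and 108, 28 and 33, with 24 h differences of 1.11 (0.18 to 2.17) and -1.16 (-1.78 to -0.60). The difference between the clones was not tested, since each time has 1 library per clone.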

How the results depend on the processing

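No paired analysis was possible because each group has 1 library, so that groups share a single replicate number, and no library could be left out of a group. A fit with the clones as blocks, which would take the clones as replicates, was not run. Values are listed where a number of unigenes moved by more than 1.5 times or a median left its 95% rank interval; the cause was not tested unless stated. With TMM factors (418 unigenes met the rule) and DESeq2's size factors (411) no value moved so far, and all 200 members met the rule. With library totals, 1358 unigenes met it, the median of the members at 24 h against control was -2.08 in ‘93-114’, and the median of ‘93-114’ against ‘Reken501’ was 0.23 at control, -0.62 at 1 h and -0.63 at 24 h. With totals without the 100 most-read unigenes these values were 777, -1.76, 0.22, -0.36 and -0.41. All 400 unigenes of the main rule met it under these 4 scalings. A scaling moves every difference of a contrast by the same amount. Library totals, with or without the 100 most-read unigenes, moved the 1 h differences of both clones down, so no unigene could drop out there. Choosing the 200 lowest again kept 194 members with TMM, 198 with DESeq2, 114 with totals and 144 with totals without the 100 most-read. It kept 157 with a pseudocount of 5 and 23 with a minimum mean of 10. A pseudocount of 5 gave 293 unigenes, 181 of them members, and moved the median at 24 h in ‘Reken501’ to -1.26. A minimum mean of 10 fragments gave 1680 unigenes and one of 100 gave 96, by construction. Of the 45 members with a mean of at least 100, 30 were low at 24 h in ‘Reken501’, 33 in ‘93-114’ and 27 in both. These counts are out of 45 and not 200, so they are smaller by construction. Over the same 45 members the median at 24 h in ‘Reken501’ was -1.68. Their medians between the clones were -0.42 at control, -0.36 at 1 h and -0.62 at 24 h, so the sign at control was the opposite of that over all members. A limit of -1.5 left 63 unigenes, and 92 members low at 24 h in ‘93-114’ and 65 in both. Contigs summed per cluster gave 291 units. Keeping only the 188 members with counting intervals below 0 at 1 h, an alternative chosen after seeing the data, moved no value so far.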
